A study of Mus musculus with 10 samples.

Results

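The genes described here carry GABA signalling and mark inhibitory interneurons: 30 of the 18453 genes in each count table, chosen by symbol and matched to Ensembl identifiers through GENCODE M21 (GRCm38). They were measured by RNA-seq in hippocampal CA3 of C57BL/6J mice, all labelled male, after stereotaxic infusion of adeno-associated virus (AAV) on both sides. Virus with a short hairpin RNA against the transcription factor Mef2c (AAV-shRNA(mef2c)) gave 5 libraries, and virus with a scrambled hairpin (AAV-shRNA(scramble)) gave 5. The protocol names CA3 pyramidal neurons as the target of the knockdown. The sources used here give neither the promoter of the virus, nor the age of the mice, nor the time after injection. The labels also leave unstated whether each library is its own animal, and p-values therefore reflect only library-to-library spread, which may be technical.

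GABA is the main inhibitory transmitter of the adult brain. Interneurons make it from glutamate with the decarboxylases Gad1 and Gad2, load it into vesicles with Slc32a1 and release it onto GABA-A receptors, which are chloride channels assembled from alpha, beta and gamma or delta subunits, and onto GABA-B receptors, G-protein-coupled dimers of Gabbr1 and Gabbr2. Astrocytes take GABA up again, in part through Slc6a11, and Abat breaks it down. In the hippocampus most receptor RNA belongs to the pyramidal and granule cells that receive inhibition, whereas Gad1, Gad2 and peptides such as Sst and Vip belong to the sparse interneurons. Fewer cells of a type and less RNA per cell cannot be told apart in tissue RNA.

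The promoters shown here belong to the members whose results the description turns on: Gabrb2 and Slc6a11, which stayed lower once length and GC content of transcripts were allowed for, and the neighbours Gabrb1 and Gabra4, of which Gabrb1 alone was called and both stood near 0 with that correction. Each window runs from 250 bases before to 50 bases after a RefSeq start (GRCm38.p6), 5′ to 3′ on the strand of the gene. The single capital near the end is the first transcribed base, and a run of capitals is a motif match.
Gabrb2: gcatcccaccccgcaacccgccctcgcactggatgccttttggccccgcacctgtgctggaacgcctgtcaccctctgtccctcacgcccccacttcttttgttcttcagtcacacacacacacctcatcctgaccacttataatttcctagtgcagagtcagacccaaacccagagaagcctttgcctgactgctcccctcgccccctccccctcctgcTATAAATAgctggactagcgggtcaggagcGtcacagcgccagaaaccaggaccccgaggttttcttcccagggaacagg
Slc6a11: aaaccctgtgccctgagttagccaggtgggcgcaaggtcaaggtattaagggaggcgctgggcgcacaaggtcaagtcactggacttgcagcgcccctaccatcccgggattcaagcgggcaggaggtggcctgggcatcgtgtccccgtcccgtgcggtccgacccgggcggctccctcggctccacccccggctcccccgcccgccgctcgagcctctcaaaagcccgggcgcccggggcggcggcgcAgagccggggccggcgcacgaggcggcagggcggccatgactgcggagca
Gabrb1: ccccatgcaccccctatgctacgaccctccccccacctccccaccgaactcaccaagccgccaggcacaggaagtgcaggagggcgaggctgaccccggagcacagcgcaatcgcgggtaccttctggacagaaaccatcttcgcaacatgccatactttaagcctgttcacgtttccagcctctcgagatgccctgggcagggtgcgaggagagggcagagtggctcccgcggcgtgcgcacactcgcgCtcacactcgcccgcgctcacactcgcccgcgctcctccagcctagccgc
Gabra4: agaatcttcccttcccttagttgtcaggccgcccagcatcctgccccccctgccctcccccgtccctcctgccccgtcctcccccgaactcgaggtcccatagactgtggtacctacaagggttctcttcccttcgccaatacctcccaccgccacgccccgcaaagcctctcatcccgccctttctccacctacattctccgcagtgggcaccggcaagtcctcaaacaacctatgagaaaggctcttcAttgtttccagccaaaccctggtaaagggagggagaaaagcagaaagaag
The windows lie at chr11:42420190-42420489 (plus strand), chr6:114130991-114131290 (plus), chr5:71657671-71657970 (plus) and chr5:71658259-71658558 (minus), in the order shown. RefSeq lists 3 starts for Gabrb2 and 2 for Gabrb1, of which 1 each is shown. On chromosome 5 Gabra4 and Gabrb1 are transcribed in opposite directions from RefSeq starts 387 bases apart, so that their 5′ ends overlap, and without knowledge of strand the reads of that overlap cannot be assigned. RefSeq held 33 windows for 26 of the 30 members. Both strands were searched for 2 spellings of the core of the binding site of MEF2 factors, TAAAAATA and TATTTATA, for the TATA box letters TATAAA and for the cAMP response element TGACGTCA. TATTTATA was in 1 member window, that of Gabrb2, and in 1.7% of all 32851 windows. There it reads TATAAATA on the gene strand, begins 30 bases before the start and overlaps a TATAAA match. TAAAAATA was in the window of Gabrg1 and in 2.72% of all windows, TATAAA in 6 member windows and 13.6% of all, and TGACGTCA in the window of Sst and 1.79% of all. A match describes letters, not binding.

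Mef2c, the targeted gene, had 111, 131, 121, 163 and 286 CPM (counts scaled to library size) in the libraries labelled Mef2c shRNA 1 to 5, against 166, 198, 176, 312 and 175 CPM in scramble libraries 1 to 5. The difference did not pass (log2 fold change -0.34, SE 0.30, edgeR quasi-likelihood adjusted p = 0.489; exact two-sided permutation p = 0.246), and the library labelled Mef2c shRNA 5 lay above 4 of the 5 scramble libraries. Library totals were 15669620 to 17798090 counts with Mef2c shRNA and 14701928 to 15637076 with scramble. Interferon-stimulated genes (6 genes, summed) stood at 64.3, 205, 151, 190 and 14.2 CPM with Mef2c shRNA, against 12.7 to 70.7 CPM with scramble, and 8 microglia markers at 330 to 641 against 285 to 388 CPM. Of the microglia markers 4 of 8 rose, of the interferon genes 1 of 6, and 1 gene each in the general pyramidal and endothelial lists, while 1 oligodendrocyte precursor gene fell. Among all genes tested 12.3% were called. With the length and GC correction described below, 0 genes of these lists passed, against 1.65% of all genes. CA3 markers (5 genes, summed) were present at 258 to 384 with Mef2c shRNA and 276 to 325 CPM with scramble. The 5 genes of pyramidal neurons in general, CA3 included, summed to 7951 to 9069 with Mef2c shRNA and 7264 to 8409 CPM with scramble. Markers of neighbouring tissue were present too: 5 dentate granule cell genes at 297 to 538 with Mef2c shRNA and 377 to 488 CPM with scramble, 4 CA1 genes at 518 to 622 and 587 to 650 CPM, and 4 choroid plexus genes at 45.0 to 2647 and 64.3 to 1907 CPM. Markers of striatal projection neurons, which are GABAergic, summed to 67.9 to 134 with Mef2c shRNA and 66.2 to 104 CPM with scramble over 6 genes. In this list Drd1, Drd2 and Adora2a averaged 3.67, 2.46 and 2.53 CPM with Mef2c shRNA and 3.32, 2.20 and 2.12 CPM with scramble. Thalamic and septal genes (5) summed to 91.3 to 143 and 99.1 to 127 CPM, oligodendrocyte genes (6) to 4551 to 9143 and 4802 to 7246 CPM, oligodendrocyte precursor genes (4) to 237 to 300 and 235 to 262 CPM, and endothelial and mural genes (5) to 203 to 250 and 216 to 234 CPM, with Mef2c shRNA first. The part of these in the results was not tested unless a value is given beside a result.

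All 30 members passed the low-count filter, with at least 31 counts in every library. With Mef2c shRNA 9 of the 30 fell and 0 rose at an adjusted p of 0.05 in edgeR. Among all 14393 genes tested, 12.3% were called, 7.61% lower and 4.66% higher. At an unadjusted p under 0.05, 10 members were lower and 0 higher, beside 4327 of the 14393 genes in either direction. DESeq2 also called 9 members lower and 0 higher. Among all genes it called 2555 in either direction, against 1766 in edgeR. Every Mef2c shRNA library lay below every scramble library in 7 members and above in 0; among all genes 9.34% were apart in this way, 6.04% below and 3.3% above. The 9 were the receptor subunits Gabrb1, Gabrb2 and Gabrg3, the GABA enzymes and transporter Gad2, Abat and Slc6a11, and the interneuron genes Reln, Erbb4 and Adarb2. Leaving out 1 library gave between 5 and 11 calls: 5 without the library labelled Mef2c shRNA 2 or without scramble library 2, 4 or 5, and 11 without the library labelled Mef2c shRNA 5. The calls over all genes moved as well, from 631 without scramble library 2 to 3305 without the library labelled Mef2c shRNA 1, where 9 members were called.

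**Figure D1:**
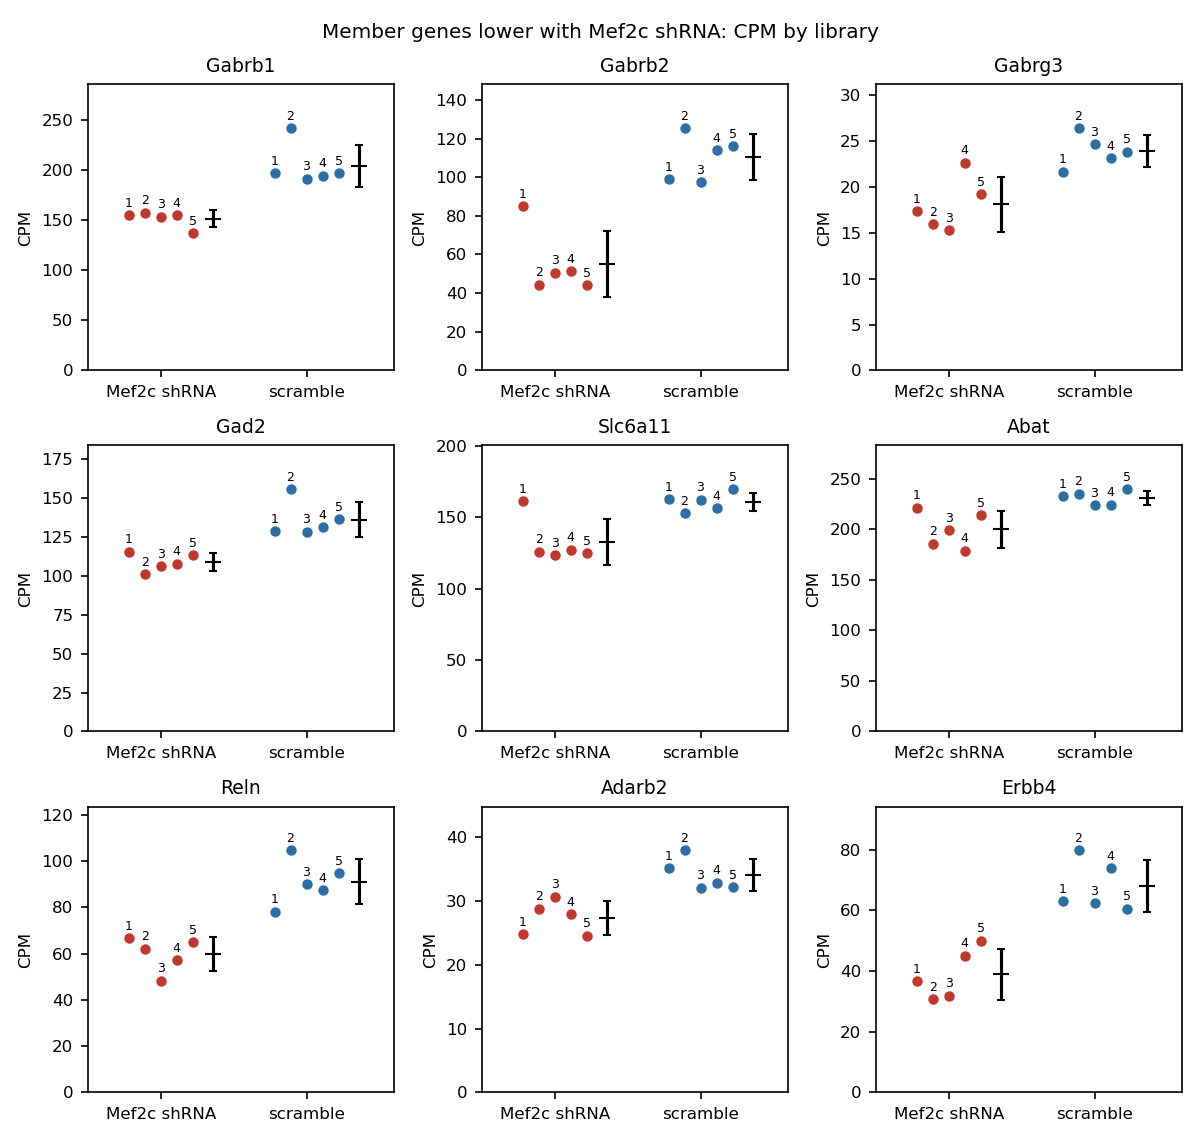
CPM (vertical axes, from 0) of the 9 members that fell, in each numbered library labelled Mef2c shRNA (red) and scramble (blue), with the mean and SD of each group in black. Gabrb2 stands between 44.3 and 85.1 CPM with Mef2c shRNA and between 97.5 and 125 CPM with scramble, and only in Gabrg3 and Slc6a11 do the groups overlap.

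The calls followed transcript length, as did those of all genes. The members whose longest transcript exceeds 8 kb, Gabrb1 (13.7 kb), Erbb4 (12.04 kb), Reln (11.7 kb) and Gabrg3 (9.77 kb), all fell, while 49.9% of all genes between 8 and 12 kb and 63.2% of longer ones fell. Of 10 members between 4 and 8 kb 4 fell, against 10.7% of genes of that length. Of 16 members up to 4 kb Gabrb2 alone fell, against 1.43% of genes between 2 and 4 kb, 0.63% between 1 and 2 kb and 0.196% up to 1 kb. Gabrb2 is in this class by its GENCODE length. Its RefSeq end lies 3563 bases further and would place it between 4 and 8 kb. Genes over 8 kb had a median log2 CPM, centred over the 10 libraries, of 0.011, -0.25, -0.16, -0.17 and -0.30 in the libraries labelled Mef2c shRNA 1 to 5 and of 0.11 to 0.25 in the scramble libraries. With offsets for length and GC content in each library, 2 members remained called, Gabrb2 and Slc6a11, both lower, against 1.65% of all genes (0.959% lower and 0.695% higher). Corrected values stand beside the results.

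**Figure D2:**
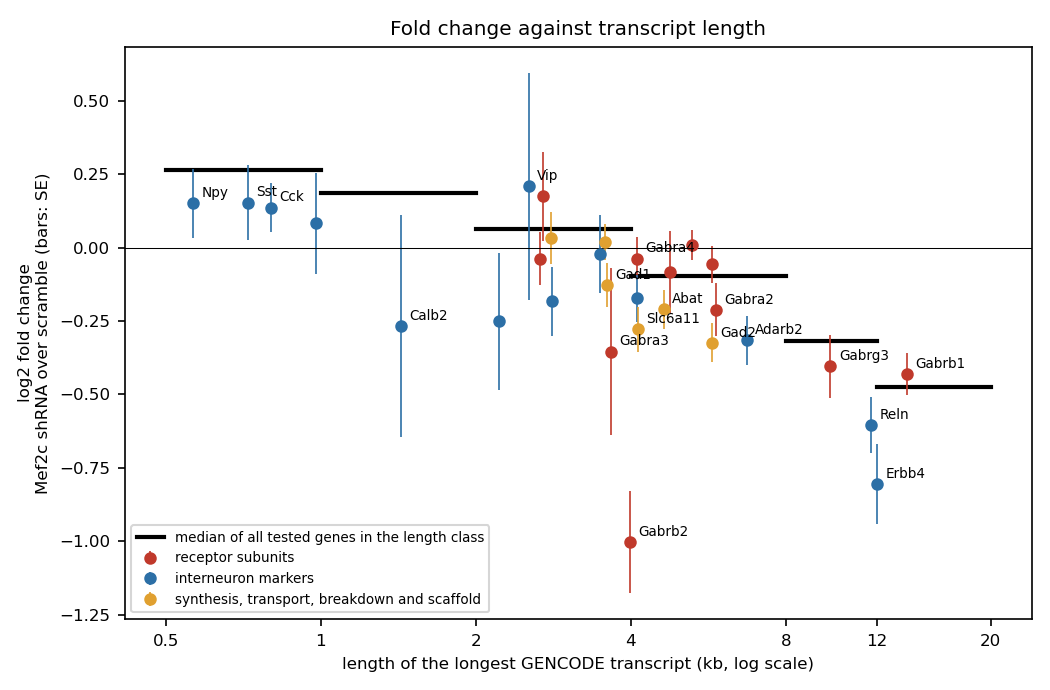
Log2 fold change of Mef2c shRNA over scramble (vertical axis, bars are SE) against the longest transcript in kb (log scale) for the 30 members, with the median of all tested genes in each length class as black lines. Gabrb2, at -1.003 and its GENCODE length of 3.99 kb, lies furthest below the median of its class, which stands at 0.06.

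Among the 9 GABA-A receptor subunits 3 fell and 0 rose, with 5 of the other 6 below 0 on the log2 scale without passing. Of all genes tested 7.61% fell and 4.66% rose, and 47.22% were below 0. Gabrb2, a beta subunit of synaptic receptors (ENSMUSG00000007653, chr11:42419757-42629028), had 85.1, 44.4, 50.6, 51.3 and 44.3 CPM in the libraries labelled Mef2c shRNA 1 to 5, against 99.1, 125, 97.5, 114 and 116 CPM in scramble libraries 1 to 5. The groups did not overlap, and the library labelled Mef2c shRNA 1 stood apart from the other 4, nearer the scramble range. The mean was 55.1 ± 17.1 CPM with Mef2c shRNA and 110 ± 11.8 CPM with scramble (SD, n = 5 each), a level 0.499 times that of scramble (log2 fold change -1.003, SE 0.17, edgeR adjusted p = 0.00706). With the length and GC correction it was -0.96 (SE 0.17, edgeR adjusted p = 0.0324). RefSeq ends the gene 3563 bases past the GENCODE end, and with that length, an alternative chosen after seeing the data, it was -0.75 (SE 0.13, edgeR adjusted p = 0.0245). Over all 18 alternatives the log2 fold change ran from -1.21 to -0.75, and the adjusted p from 6.3e-08 to 0.18, the highest without libraries 2, 3 and 4 labelled Mef2c shRNA. Gabrb2 was lowest, and nearly equal, in the libraries labelled Mef2c shRNA 5 (44.3 CPM) and 2 (44.4 CPM). In these, in that order, interferon-stimulated genes summed to 14.2 and 205 CPM and Mef2c stood at 286 and 131 CPM. The part of either in the Gabrb2 result was not tested.

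Gabrb1, another beta subunit (chr5:71658113-72149037), had 155, 158, 154, 155 and 137 CPM in the libraries labelled Mef2c shRNA 1 to 5, against 198, 242, 192, 195 and 197 CPM in scramble libraries 1 to 5. No Mef2c shRNA library reached the scramble range. It fell by 0.43 log2 units (SE 0.072, edgeR adjusted p = 0.00305), and 0.025 (SE 0.054) with the length and GC correction, which ended the call and turned the sign; with RefSeq ends it was -0.0053. Gabra4, the alpha subunit whose RefSeq start lies 387 bases from the RefSeq start of Gabrb1 and whose longest transcript is 4.11 kb, had 87.3 to 107 CPM with Mef2c shRNA and 87.9 to 109 CPM with scramble, ranges that overlapped almost entirely, and did not pass (-0.038, SE 0.073). The log2 ratio of Gabrb1 to Gabra4 was 0.607 ± 0.148 with Mef2c shRNA and 0.997 ± 0.134 with scramble (SD, n = 5 each), an exact two-sided permutation p of 0.00794, or 0.0397 after Benjamini-Hochberg adjustment over 5 pairs of genes, with no overlap of the groups; 0.0079 is the smallest p that 5 against 5 libraries allow. After the correction both stood near 0, at 0.025 for Gabrb1 and 0.0093 for Gabra4. The ratio of Gabrb2 to Gabrb1 was lower by 0.613 log2 units with Mef2c shRNA and missed the threshold after adjustment (exact p = 0.0317, adjusted 0.0661).

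Gabrg3, a gamma subunit (chr7:56716465-57387188), had 17.3, 15.9, 15.3, 22.7 and 19.2 CPM with Mef2c shRNA and 21.7, 26.4, 24.7, 23.1 and 23.9 CPM with scramble, with 1 Mef2c shRNA library inside the scramble range. It fell (-0.40, SE 0.11, edgeR adjusted p = 0.0289), and no longer passed after the correction (-0.048, SE 0.11). The call was also lost without the library labelled Mef2c shRNA 2 or 3 or scramble library 2, 4 or 5, at adjusted p values of 0.0578 to 0.0862. Its neighbour Gabra5, the alpha subunit of tonic hippocampal inhibition, was at 187 ± 25.8 CPM with Mef2c shRNA and 192 ± 14.5 CPM with scramble (SD, n = 5 each) and did not pass (-0.038, SE 0.090).

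Gabra3, an X-linked alpha subunit, had 36.1, 24.8, 23.6 and 34.2 CPM in the libraries labelled Mef2c shRNA 1 to 4 and 71.2 CPM in that labelled 5, against 44.7, 53.1, 45.8, 52.8 and 46.3 CPM with scramble. The first 4 lay below every scramble library and the fifth above every one. Over all 10 libraries it did not pass (-0.35, SE 0.28, edgeR adjusted p = 0.441), and without the library labelled Mef2c shRNA 5 it did (-0.71, SE 0.12, edgeR adjusted p = 0.0043); its adjusted p ran from 0.0043 to 0.767 over the alternatives. Gabra2, an alpha subunit of axon initial segment synapses, averaged 86.2 ± 5.69 CPM with Mef2c shRNA and 99.8 ± 14.8 CPM with scramble and did not pass (-0.21, SE 0.090). The astrocytic gamma subunit Gabrg1 stood at 15.5 to 21.7 with Mef2c shRNA and 15.5 to 25.9 CPM with scramble. Gabrd, the delta subunit of extrasynaptic receptors, stood at 27.6 to 47.0 and 29.4 to 38.1 CPM in that order. Neither passed.

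The GABA-B receptor subunits did not pass. Gabbr1, which binds GABA, stood at 807 ± 23.2 CPM with Mef2c shRNA and 803 ± 28.7 CPM with scramble (log2 fold change 0.0082, SE 0.052). Gabbr2, which couples to the G protein, stood at 346 ± 29.3 and 360 ± 5.55 CPM in that order (-0.057, SE 0.063; SD, n = 5 each). The ratio of Gabbr2 to Gabbr1 differed by -0.0695 log2 units (exact p = 0.159, adjusted 0.159). Of 8 further genes, auxiliary subunits and potassium channels that the receptor opens, 2 fell: Kctd16, an auxiliary subunit (5.06 ± 1.175 CPM with Mef2c shRNA and 9.56 ± 0.769 CPM with scramble; -0.92, SE 0.16), and the channel gene Kcnj6 (25.2 ± 9.01 and 45.4 ± 2.76 CPM; -0.85, SE 0.20), both with groups apart. Of all genes tested 7.61% fell, and in 6.04% every Mef2c shRNA library lay below every scramble library. After the correction Kctd16 passed (-0.95, SE 0.16) and Kcnj6 did not (-0.85, SE 0.19), and with RefSeq ends neither did, Kctd16 then at -0.46. The Kcnj6 call was also lost without the library labelled Mef2c shRNA 2, 3 or 4 or scramble library 2, 4 or 5 (adjusted p of 0.0546 to 0.0691).

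**Figure D3:**
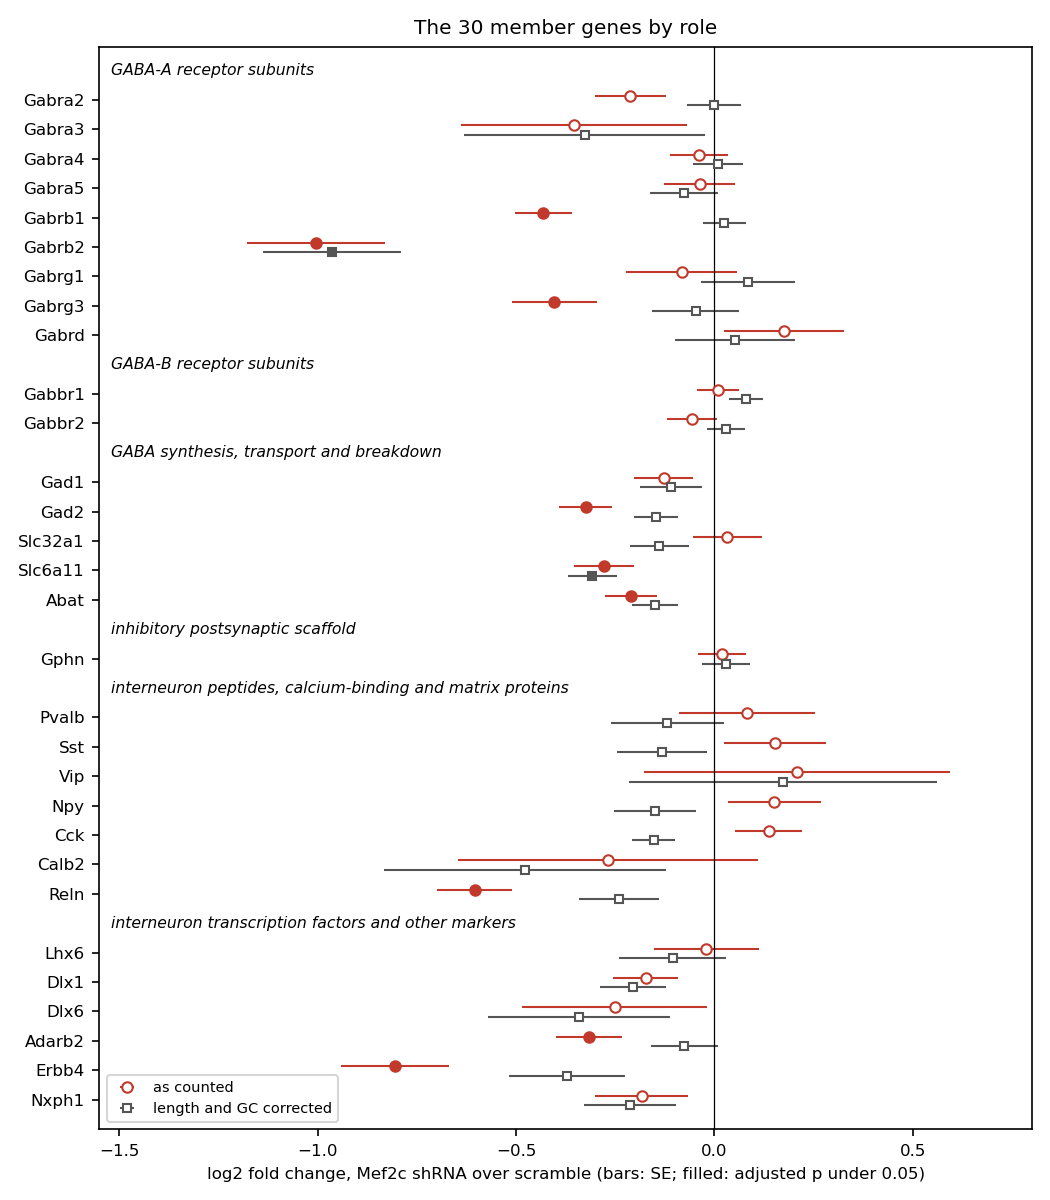
Log2 fold change of Mef2c shRNA over scramble (horizontal axis, bars are SE) for the 30 members by role, from the counts (red circles) and with the length and GC correction (grey squares); filled symbols passed an adjusted p of 0.05. Filled red symbols number 9, all below 0, and the grey ones that are filled are Gabrb2 at -0.96 and Slc6a11 at -0.31.

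Of the 5 genes of GABA synthesis, transport and breakdown 3 fell, each with a longest transcript between 4 and 8 kb. Of all genes tested 7.61% fell, and of those between 4 and 8 kb 10.7%. Gad2, the decarboxylase of nerve terminals (chr2), had 116, 101, 106, 108 and 113 CPM in the libraries labelled Mef2c shRNA 1 to 5, against 129, 156, 128, 132 and 136 CPM with scramble. The groups did not overlap (log2 fold change -0.32, SE 0.066, edgeR adjusted p = 0.00925), and the call was lost with the correction (-0.15, SE 0.055). Gad1, the other decarboxylase, had 242, 273, 252, 276 and 325 CPM with Mef2c shRNA, against 285, 316, 299, 292 and 304 CPM with scramble. In 4 of the 5 Mef2c shRNA libraries Gad1 lay below every scramble library, and in that labelled 5 above. It did not pass (-0.13, SE 0.075, edgeR adjusted p = 0.265) except without the library labelled Mef2c shRNA 5 (-0.20, SE 0.060, edgeR adjusted p = 0.0454); over the alternatives its adjusted p ran from 0.0454 to 0.707. Gad2 and Gad1 were not shown to differ in response (difference of the log2 ratio -0.187, Mef2c shRNA minus scramble, exact p = 0.0635, adjusted 0.0794). Slc32a1, the vesicular transporter of GABA, stood at 62.2 to 90.3 CPM with Mef2c shRNA and 65.4 to 73.2 CPM with scramble (0.032, SE 0.087), and its ratio to Gad1 missed the threshold after adjustment (difference 0.156, exact p = 0.0397, adjusted 0.0661).

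Slc6a11, a GABA transporter of astrocytes (chr6), had 161, 126, 123, 127 and 125 CPM in the libraries labelled Mef2c shRNA 1 to 5, against 163, 153, 162, 157 and 170 CPM with scramble. The library labelled 1 lay within the scramble range and the other 4 below it. It fell (-0.28, SE 0.075, edgeR adjusted p = 0.0309), also with the correction (-0.31, SE 0.061, edgeR adjusted p = 0.0269). The call was lost without the library labelled Mef2c shRNA 2, 3 or 4 or without any of the 5 scramble libraries, at adjusted p values of 0.0515 to 0.0903, and over all alternatives the adjusted p ran from 0.000574 to 0.382. Astrocyte markers (7 genes) summed to 3619 to 5225 CPM with Mef2c shRNA and 4632 to 5207 CPM with scramble. Aldh1l1 was higher (0.29, SE 0.072) and the glutamate transporter Slc1a2 lower (-0.33, SE 0.073). With the correction neither passed, at 0.27 and 0.071, and the other 5 did not pass in either fit. Slc1a2 made up most of the sum, and 6 of the 7 markers were above 0 in log2 fold change (list median 0.16). Gfap, a marker of reactive astrocytes, had 747, 1038, 1265, 1155 and 299 CPM in the libraries labelled Mef2c shRNA 1 to 5, against 389, 512, 703, 394 and 438 CPM with scramble (0.89, SE 0.37, edgeR adjusted p = 0.149). Its part in the Slc6a11 result was not tested. Abat, the transaminase that degrades GABA, had 221, 186, 199, 179 and 214 CPM with Mef2c shRNA, against 233, 235, 224, 224 and 240 CPM with scramble, and fell by 0.21 log2 units close to the threshold (SE 0.065, edgeR adjusted p = 0.0495). Its call was lost with the correction, with DESeq2 size factors (edgeR adjusted p = 0.0526), without the low-count filter (0.06), with the replicate block (0.0723) and without each library other than those labelled Mef2c shRNA 1 and 5 (adjusted p of 0.0626 to 0.129); over the alternatives the adjusted p ran from 0.0121 to 0.516. Gphn, the gephyrin scaffold that anchors GABA-A receptors, averaged 79.9 ± 4.53 CPM with Mef2c shRNA and 78.9 ± 4.28 CPM with scramble (0.019, SE 0.061).

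Among the 13 interneuron markers 3 fell and 0 rose, the same number as among the 11 receptor subunits. Of all genes tested 7.61% fell and 4.66% rose. The median log2 fold change was -0.17 for the interneuron markers and -0.083 for the receptors, beside 0.016 for all genes. With the correction these medians were -0.15 and 0.0093, beside 0.0046, and 0 interneuron markers and 1 receptor subunit passed (unadjusted, 4 and 1). Of all 14393 genes 1.65% passed in that fit, and 2527 had an unadjusted p under 0.05. The library medians of the markers, in centred log2 CPM, were -0.27, -0.010, -0.27, -0.083 and 0.25 in the libraries labelled Mef2c shRNA 1 to 5 and 0.011 to 0.13 with scramble. Those of the receptors were -0.15, -0.12, -0.13, -0.087 and -0.027 with Mef2c shRNA and -0.0087 to 0.35 with scramble. The library labelled Mef2c shRNA 5 was thus the highest of all 10 in the markers. In the receptors every Mef2c shRNA library lay below every scramble library, and that labelled 5 was the highest of them (-0.027), close to the lowest scramble library (-0.0087). These library medians were not corrected for length.

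**Figure D4:**
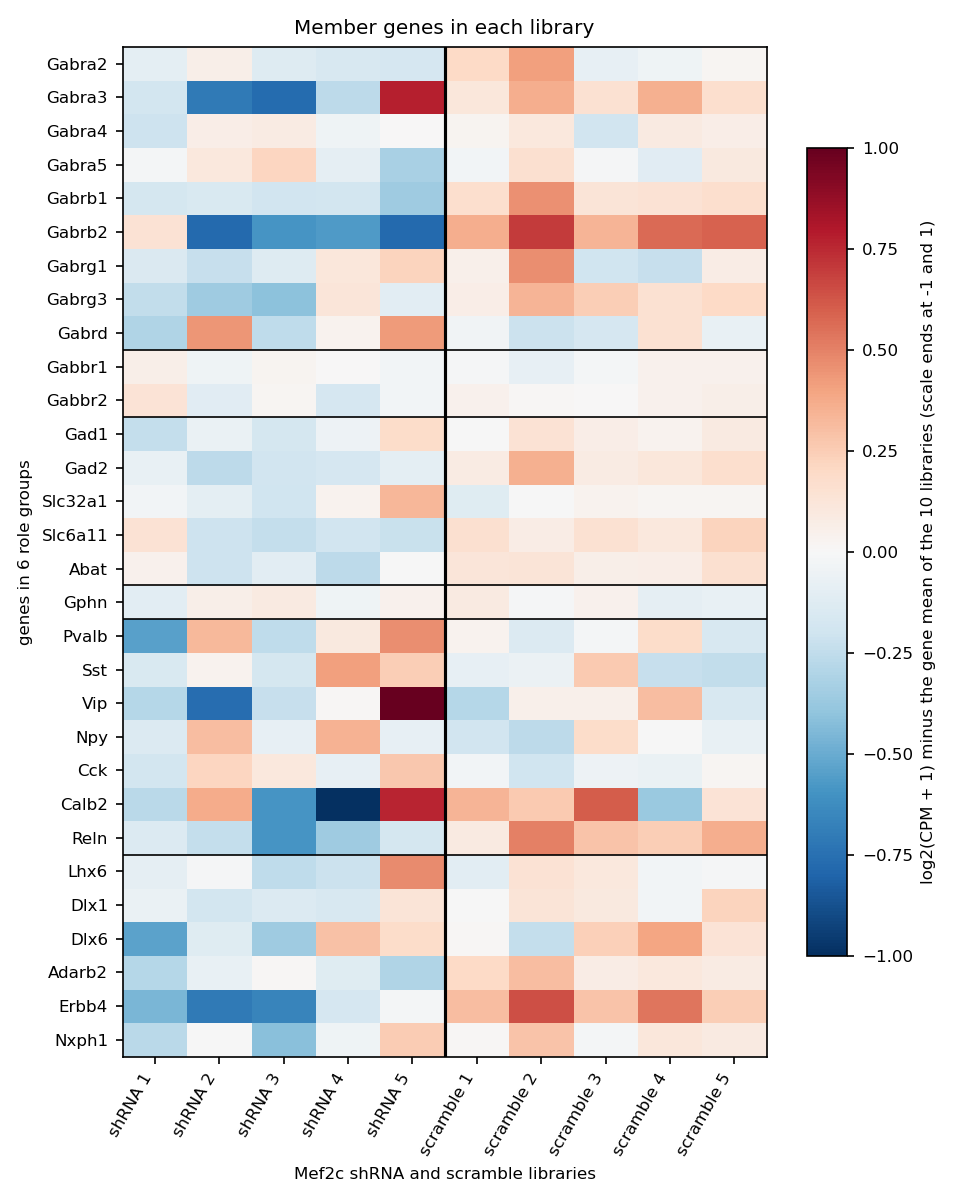
log2(CPM + 1) of the 30 members minus the mean of each gene over the 10 libraries (colour), by library (columns, Mef2c shRNA left of scramble), with black lines between the role groups. Gabrb2, Reln and Erbb4 are lower across the Mef2c shRNA columns, while Gabra3, Vip, Calb2 and Lhx6 are high in the library labelled 5.

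Erbb4, the neuregulin receptor of interneurons (chr1, 12.04 kb), had 36.7, 30.8, 31.9, 45.0 and 50 CPM in the libraries labelled Mef2c shRNA 1 to 5, against 63.0, 79.8, 62.3, 73.9 and 60.5 CPM with scramble, without overlap (-0.80, SE 0.14, edgeR adjusted p = 0.00445; -0.37, SE 0.15 with the correction, not passing). Reln, the secreted matrix protein reelin of interneurons and Cajal-Retzius cells (chr5, 11.7 kb), had 66.9, 62.2, 48.4, 57.2 and 64.9 CPM with Mef2c shRNA, against 78.2, 105, 90.0, 87.5 and 94.9 CPM with scramble, also apart (-0.60, SE 0.094, edgeR adjusted p = 0.00189; -0.24, SE 0.10 with the correction, not passing). Both calls held without any single library. Adarb2, an RNA editing family gene and marker of interneurons from the caudal ganglionic eminence (chr13, 6.72 kb), had 24.8, 28.8, 30.6, 27.9 and 24.5 CPM with Mef2c shRNA, against 35.1, 37.9, 32.0, 32.8 and 32.2 CPM with scramble (-0.32, SE 0.082, edgeR adjusted p = 0.0269; -0.076, SE 0.084 with the correction). The Adarb2 call was also lost without the library labelled Mef2c shRNA 2 or scramble library 1, 2, 4 or 5 (adjusted p of 0.0512 to 0.079).

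The transcription factors of interneurons did not pass. Lhx6, of the lineage that gives parvalbumin and somatostatin cells, stood at 14.9 to 25.2 CPM with Mef2c shRNA and 16.6 to 19.95 CPM with scramble. Dlx1, of forebrain GABAergic neurons in general, stood at 26.6 to 33.3 and 29.8 to 35.7 CPM in that order (-0.17, SE 0.082). Dlx6, from whose locus antisense RNA is also made, stood at 1.99 to 4.31 and 2.69 to 4.69 CPM, and Nxph1, a neurexin ligand, at 17.1 to 27.8 and 22.8 to 28.4 CPM. These ranges overlapped.

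The short transcripts of peptides and calcium-binding proteins did not pass either, and 4 of them changed sign with the correction. Sst had 121, 139, 120, 180 and 161 CPM in the libraries labelled Mef2c shRNA 1 to 5, against 128, 130, 162, 115 and 114 CPM with scramble (0.15, SE 0.13; -0.13 with the correction). Pvalb stood at 15.8 to 32.7 with Mef2c shRNA and 20.9 to 26.8 CPM with scramble (0.082; -0.12 with the correction). Npy stood at 28.0 to 39.6 and 25.7 to 35.3 CPM (0.15; -0.15), and Cck, which pyramidal cells also express, at 202 to 276 and 200 to 232 CPM (0.14; -0.15), in the same order. The median of all genes under 1 kb, the length of these 4, was 0.26 without the correction. Calb2, which encodes calretinin, ranged from 7.11 to 31.5 CPM with Mef2c shRNA and from 13.9 to 28.2 CPM with scramble.

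Vip, the peptide of a class of interneurons that mainly inhibit other interneurons, had 9.38, 6.44, 9.78, 11.8 and 30.3 CPM in the libraries labelled Mef2c shRNA 1 to 5, against 9.35, 12.1, 12.1, 14.67 and 10.3 CPM with scramble. Its log2 fold change was 0.21 (SE 0.39) over all 10 libraries and -0.32 without the library labelled Mef2c shRNA 5; neither passed. That library was also the highest of all 10 in Gabra3, Lhx6, Calb2, Pvalb, Slc32a1 and Gad1. Its 6 cortical layer markers summed to 202 CPM, against 78.1 to 139 CPM in the libraries labelled Mef2c shRNA 1 to 4 and 115 to 171 CPM with scramble. The part of these in the results was not tested.

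**Figure D5:**
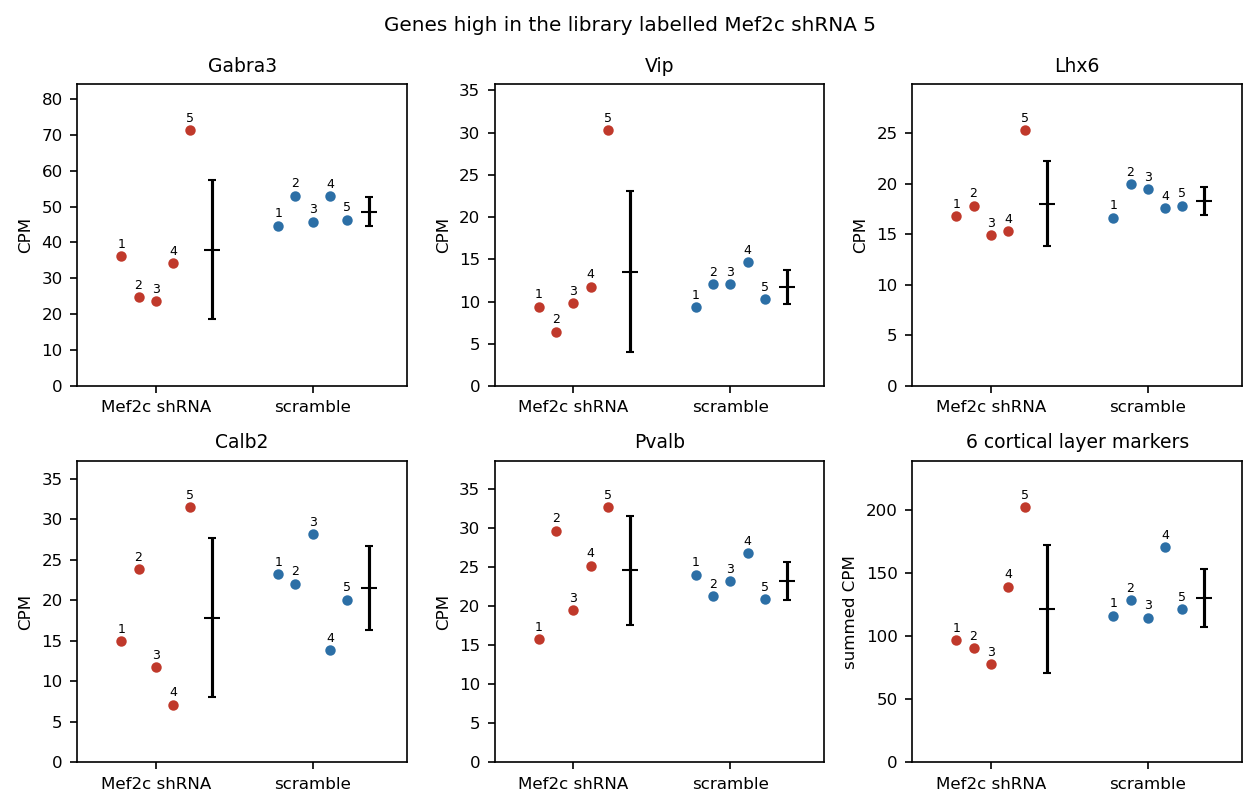
CPM (vertical axes, from 0) of Gabra3, Vip, Lhx6, Calb2 and Pvalb and the summed CPM of 6 cortical layer markers in each numbered library labelled Mef2c shRNA (red) and scramble (blue), with mean and SD in black. In each panel the library labelled Mef2c shRNA 5 is the highest, at 71.2 CPM for Gabra3 and 30.3 CPM for Vip.

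Per kb of the longest transcript, the levels (CPM per kb, means with Mef2c shRNA and with scramble) were highest for Cck, at 302 and 275, followed by Sst (200 and 180) and Gabbr1 (154 and 153). Gad1 (75.9 and 83.0) and Gabra5 (69.9 and 71.7) followed. Among the GABA-A subunits Gabra5 was the highest in both groups. Gabrb2, at 13.8 with Mef2c shRNA and 27.7 with scramble, was second to Gabra5 in scramble and stood below Gabra4 (24.3 and 24.9) and Gabra2 (14.73 and 17.1) with Mef2c shRNA. Gabrg3 (1.85 and 2.45) and Dlx6 (1.41 and 1.68) were the lowest members. These levels depend on the annotated length.

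Further lists of the same pathway are read against the 12.3% called among all genes. Of 21 tested partners and other subunits of GABA-A receptors 1 rose and 0 fell: Gabarap, a receptor-binding and autophagy protein, at 110 ± 12.1 CPM with Mef2c shRNA and 87.8 ± 2.92 CPM with scramble (0.32, SE 0.075, edgeR adjusted p = 0.0173; 0.14 with the correction; edgeR adjusted p = 0.0551 without scramble library 5). The median of that list was -0.026, against 0.016 for all genes. Of 15 genes of other GABA transport, breakdown and chloride balance 3 fell and 0 rose: Slc38a1, a glutamine transporter (-0.34, SE 0.084), Wnk1, a kinase of chloride transporters (-0.49, SE 0.14), and Aldh5a1, which completes GABA breakdown (-0.21, SE 0.064). Of 38 tested other interneuron markers 6 fell and 1 rose. The lower ones with the smallest p were the cannabinoid receptor Cnr1 (153 ± 15.3 CPM with Mef2c shRNA and 200 ± 21.98 CPM with scramble; -0.39, SE 0.086), Grip1 (-0.45, SE 0.12), Ndnf (-0.44, SE 0.12) and the chromatin organizer Satb1 (-0.37, SE 0.10). The proenkephalin gene Penk rose (25.8 ± 4.64 CPM with Mef2c shRNA and 17.4 ± 2.09 CPM with scramble; 0.57, SE 0.13). The calls of Cnr1 and Penk held without any single library; those of Slc38a1, Wnk1, Aldh5a1, Grip1, Ndnf and Satb1 were each lost without the library labelled Mef2c shRNA 2 or scramble library 2 or 5. Without the library labelled Mef2c shRNA 3 those of Wnk1, Aldh5a1, Grip1, Ndnf and Satb1 were lost, and without that labelled 4 those of Aldh5a1 and Grip1. Aldh5a1 was also lost without that labelled 5, Aldh5a1 and Grip1 without scramble library 1, Wnk1 without scramble library 3, and Slc38a1, Wnk1, Aldh5a1 and Satb1 without scramble library 4. The adjusted p in these cases was 0.0533 to 0.12. Without the low-count filter Aldh5a1 (edgeR adjusted p = 0.0602) and Wnk1 (0.0541) were lost, which left 1 of the 15, and with the replicate block Aldh5a1 was lost (0.0969). None of these lists kept a called gene after the correction, apart from Kctd16 above.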

How the data were processed

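RNA of CA3 was measured in 10 libraries, 5 with Mef2c shRNA and 5 with scramble, grouped and numbered by their titles. Per the submitters' processing notes, reads were processed with HISAT2 and featureCounts against mm10. Strandedness and annotation: not given in the sources used here. Each deposited file holds whole-number counts, one value for every gene and not normalized. Of 18453 rows 18445 matched GENCODE M21. No library repeated another of its group (lowest chi-square 3.85 per degree of freedom).

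Counts were filtered with filterByExpr, scaled by TMM, then tested by edgeR's quasi-likelihood method, robust setting, in version 4.0.16 under R 4.3.3, with Benjamini-Hochberg adjustment over 14393 genes and a threshold of 0.05; the SE is the log2 fold change over the square root of F. The length and GC correction adds per-library offsets from natural splines (5 degrees of freedom each) of the longest transcript's log2 length and GC content. DESeq2 1.42.0 was an alternative. Pairs of genes were compared by exact permutation of log2 CPM ratios over 252 assignments. The fits were tested on simulated data. The text names all members, Mef2c, and up to 4 called genes with the smallest p per direction of each further list. Members, lists and tests were chosen with earlier results of these data known.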

Additional observations from a re-analysis of the deposited data

Results flagged for a closer look

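In 62 groups of 5 libraries (30 members and Mef2c in each group), 11 held a library whose gap to its nearest neighbour exceeded Dixon's 95% limit of 0.71 of the range; chance gives about 1 in 20. Among the Mef2c shRNA libraries, that labelled 5 stood apart as high in Gabra3 (71.2 CPM), Vip (30.3 CPM) and Lhx6 (25.2 CPM) and as low in Gabrb1 (137 CPM), and that labelled 1 as high in Gabrb2 (85.1 CPM) and Slc6a11 (161 CPM). Among the scramble libraries, number 2 stood apart as high in Gabrb1 (242 CPM) and Gad2 (156 CPM), number 1 as low in Slc32a1 (65.4 CPM), number 3 as low in Gabra4 (87.9 CPM) and number 4 as high in Mef2c (312 CPM).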

How the results depend on the processing

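The calls over all genes depended on the libraries and on transcript length. They numbered 1766 (671 higher, 1095 lower), 238 with the length and GC correction (100 higher, 138 lower), 261 with RefSeq ends in it, chosen after seeing the data (131 higher, 130 lower), 1029 without scramble library 4 and the library labelled Mef2c shRNA 5, and 0 without the libraries labelled Mef2c shRNA 2, 3 and 4, where 2590 genes had an unadjusted p under 0.05. Leaving out 1 library gave 631 to 3305 calls: 3305, 737, 1137 and 1061 without the libraries labelled Mef2c shRNA 1, 2, 3 and 4, and 990, 631, 758 and 674 without scramble libraries 1, 2, 4 and 5. Members called numbered 9, then 2 with either correction, 0 without the 3 libraries (7 at an unadjusted p under 0.05) and 5 to 11 without 1 library. Receptors called numbered 3, then 1, 0 (3 unadjusted) and 2 to 4 in the same order, and interneuron markers 3, then 0 (4 unadjusted), 0 (3 unadjusted) and 2 to 3. The receptor median moved to -0.226 without scramble library 4 and the library labelled Mef2c shRNA 5, and Mef2c passed there (-0.446, SE 0.105, edgeR adjusted p = 0.0274; 0.0274 to 0.957 over its alternatives). Each of these libraries held the highest Mef2c of its group (312 CPM in scramble library 4 and 286 CPM in that labelled Mef2c shRNA 5). Leaving them out narrows the spread of Mef2c itself, so this pass is no test of the knockdown. Without 1 library the receptor median was -0.154 to -0.062, the interneuron median -0.277 to -0.0643 and Mef2c -0.642 to -0.139.

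Direction turned, without passing, with the correction in Gabra4 (0.0093), Gabrb1 (0.025), Gabrg1 (0.084), Gabbr2 (0.029), Slc32a1 (-0.14), Pvalb (-0.12), Sst (-0.13), Npy (-0.15) and Cck (-0.15). With RefSeq ends it turned in Gabrg1 (0.054), Gabbr2 (0.026), Slc32a1 (-0.145), Pvalb (-0.134), Sst (-0.132), Npy (-0.141) and Cck (-0.156). Without scramble library 4 and the library labelled Mef2c shRNA 5 it turned in Slc32a1 (-0.055), Gphn (-0.013) and Vip (-0.23). Without the libraries labelled Mef2c shRNA 2, 3 and 4 it turned in Gabra3 (0.14), Gabbr2 (0.022), Gphn (-0.030), Npy (-0.057), Calb2 (0.11) and Lhx6 (0.196). Leaving out 1 library turned Gabra4 (-0.0862 to 0.00795), Gabbr1 (-0.0102 to 0.0228), Lhx6 (-0.171 to 0.035), Gphn (-0.00741 to 0.049), Gabra5 (-0.105 to 0.0342), Slc32a1 (-0.0565 to 0.0776), Pvalb (-0.039 to 0.206), Vip (-0.323 to 0.388) and Gabrg1 (-0.154 to 0.0485). The cause was not tested.

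Same-numbered libraries did not deviate together throughout (correlations -0.11 to 0.40), so the numbers were not taken as pairs; with the number as a replicate block 1313 genes were called, with 8 members (all but Abat), 3 receptors and 3 interneuron markers, and Mef2c was at -0.397. DESeq2 size factors, the unfiltered fit and the DESeq2 test kept the counts of calls of all genes and members within 1.5 times. Of the further lists, the one of GABA transport, breakdown and chloride genes went to 1 call, against 3, in the unfiltered fit, and the one of GABA-A receptor partners to 3 calls, against 1, in the DESeq2 test.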
